A study of Mus musculus with 21 samples.

Results

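miR-335 is a microRNA whose hairpin, *Mir335*, lies inside the imprinted gene *Mest*, and its 2 mature strands, miR-335-5p and miR-335-3p, were followed here through pituitaries of *Zeb1* mutant mice. They are 2 of the 1934 miRNA names listed in either of the dictionaries used for counting, 1909 for the virgin cohort and 1841 for the breeding trial cohort. The strands were found by name, after removal of the species prefix, and both had counts in all 6 deposited tables. The pair was selected on measured values, with results of the genotype comparisons of these same libraries already known. The genotype levels and fold changes of both strands are therefore given as a description, with no test.

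*Mest* is transcribed from the paternal allele, the maternal copy being silenced by DNA methylation, and encodes a membrane protein related to hydrolases. A hairpin in an intron of such a gene is cut from the host transcript and yields a pair of strands, of which the more abundant usually guides Argonaute proteins to target mRNAs. ZEB1, the protein at the centre of the mouse model, is a transcriptional repressor that binds E-box sequences and is itself repressed by the miR-200 family, with which it forms a feedback loop.

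The study asked what happens when *Zeb1* mRNA escapes miR-200a and miR-200b, using small-RNA sequencing of whole pituitary. The 3 genotypes were WT, *Zeb1 200H*, heterozygous for a knock-in allele of *Zeb1* in which the 3′ UTR sites for these miRNAs are disrupted, and *Zeb1 200M*, homozygous for it. All mice were C57BL/6J females dissected in proestrus, and the mutant allele came from 2 clonal embryonic stem cell lines that the library labels do not tell apart. The virgin cohort, 8 to 12 weeks old, had 3 WT, 4 *Zeb1 200H* and 4 *Zeb1 200M* libraries, and the breeding trial cohort, 28 to 36 weeks old and mated beforehand, had 4 WT, 3 *Zeb1 200H* and 3 *Zeb1 200M* libraries. Each of the 21 libraries came from a different mouse.

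Virgin libraries held 3816917 to 10806313 miRNA counts with a median of 9698685, and breeding trial libraries held 60037 to 191650. Levels are given as CPM, counts scaled to a library total of 1000000. Age, breeding history, sequencing instrument, and counting dictionary all differed between the cohorts and cannot be told apart, so levels were compared between genotypes of a cohort and not between cohorts. Per the paper, most homozygous females of the breeding trial produced no litters, whereas heterozygous females were fertile. Litters therefore went with genotype in that cohort, and the library labels do not give them. The part of litters in breeding trial differences was not tested. Virgin WT replicate 1 stood apart from the other virgin libraries. It had the lowest total, 3816917 counts against 8502878 to 10806313, and its 3 most abundant miRNAs took 36.9% of its counts against 24.5% to 28.1%. Its TMM factor, by which edgeR corrects a library total for its composition, was 0.632 in the fit with *Zeb1 200M* and 0.640 in the fit with *Zeb1 200H*, whereas the other libraries of these fits were between 0.979 and 1.15. Fold changes of miR-335 and numbers of calls from the main virgin fits against WT are therefore also given without this library.

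The mature strands are printed from RefSeq (GRCm38.p6) because their 5′ bases decide both which mRNAs they pair with and how their reads were assigned. Capitals mark the seed, bases 2 to 8 from the 5′ end.
miR-335-5p: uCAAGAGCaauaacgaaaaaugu
miR-335-3p: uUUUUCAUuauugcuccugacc
Among 1679 mature mouse miRNA names of RefSeq, 0 others shared the seed of miR-335-5p and 0 others shared that of miR-335-3p. Of these RefSeq names, no other shared the first 19 bases of either strand or the first 18. Those lengths were used to assign virgin and breeding trial reads, respectively, with other dictionaries, whose sequences were not compared.

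*Mir335* (ENSMUSG00000065501) spans bases 30741299 to 30741396 of the plus strand of chromosome 6, within *Mest* (ENSMUSG00000051855), which spans bases 30723547 to 30748465 of the same strand. Of 11 annotated *Mest* transcripts, 7 span the hairpin, and in all 7 it lies in an intron. The 98 bases of the hairpin are shown with both strands in capitals, so that their facing positions on the arms can be seen.
*Mir335* hairpin: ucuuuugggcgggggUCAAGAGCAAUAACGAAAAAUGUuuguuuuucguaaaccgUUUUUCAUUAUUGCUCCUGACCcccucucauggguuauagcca
miR-335-5p starts at base 16 of the hairpin and miR-335-3p at base 56.

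**Figure D1:**
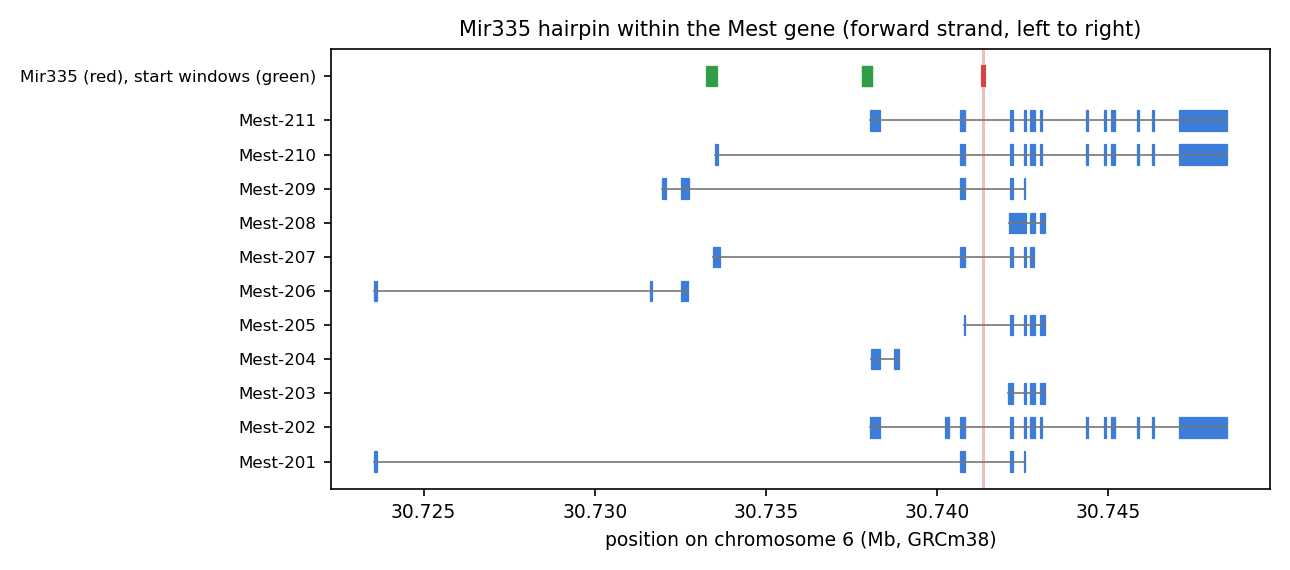
Annotated *Mest* transcripts on chromosome 6 (GRCm38, position in Mb), with exons as blue boxes, introns as grey lines, the *Mir335* hairpin in red and the windows around RefSeq transcription starts in green. The hairpin falls in an intron of the 7 transcripts that span it and in no exon of the 11.

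In virgin WT pituitaries, miR-335-5p was at 23384, 15970, and 16482 CPM in replicates 1, 2, and 4. It was at 11241, 10916, 12242, and 11378 CPM in *Zeb1 200H* replicates 1 to 4. It was at 12569, 11328, 11196, and 12654 CPM in *Zeb1 200M* replicates 1 to 4. All WT libraries lay above all mutant libraries, and the ranges of the mutant genotypes overlapped. The mean was 18612 ± 4140 CPM (SD, n = 3) in WT, or 16226 without replicate 1, against 11444 ± 566 (n = 4) in *Zeb1 200H* and 11937 ± 782 (n = 4) in *Zeb1 200M*. By mean level the order was WT, *Zeb1 200M*, *Zeb1 200H*, and *Zeb1 200M* and *Zeb1 200H* did not differ beyond their spread.

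miR-335-3p, the less abundant strand, was at 926, 1279, and 1207 CPM in virgin WT replicates 1, 2, and 4. The *Zeb1 200H* libraries were at 758, 776, 928, and 769 CPM. The *Zeb1 200M* libraries were at 814, 763, 825, and 935 CPM. WT replicates 2 and 4 were above every mutant library, whereas WT replicate 1 lay just below the highest library of each mutant genotype. The mean was 1137 ± 187 CPM (SD, n = 3) in WT, 808 ± 80.2 (n = 4) in *Zeb1 200H* and 834 ± 72.5 (n = 4) in *Zeb1 200M*, and 1243 in WT without replicate 1. All neighbours in this order overlapped when replicate 1 was counted. After TMM scaling the WT values of miR-335-3p became 1451, 1358, and 1242 CPM, all above the highest mutant value of 897, and those of miR-335-5p became 36642, 16953, and 16956 CPM.

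In the breeding trial cohort, miR-335-5p was at 18881, 16474, 19621, and 21049 CPM in WT replicates 1 to 4. In *Zeb1 200H* replicates 1, 3, and 4 it was at 14999.6, 15840, and 15367 CPM. In *Zeb1 200M* replicates 1 to 3 it was at 14544, 12916, and 13737 CPM. The 3 genotypes formed a descending series without overlap, WT above *Zeb1 200H* and *Zeb1 200H* above *Zeb1 200M*. The part of litters in this order was not tested. Mean levels were 19006 ± 1913 (SD, n = 4), 15402 ± 421 (n = 3), and 13732 ± 814 CPM (n = 3), respectively.

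Breeding trial WT libraries had miR-335-3p at 1579, 1729, 1546, and 1440 CPM. The *Zeb1 200H* libraries were at 955, 1016, and 1226 CPM. The *Zeb1 200M* libraries were at 1221, 1272, and 1262 CPM. Every WT library was above every mutant library, but here *Zeb1 200M* had the higher mean of the mutants and their ranges overlapped through *Zeb1 200H* replicate 4. Means were 1573 ± 119 (SD, n = 4) in WT, 1066 ± 142 (n = 3) in *Zeb1 200H* and 1252 ± 27.4 CPM (n = 3) in *Zeb1 200M*. These levels rest on 61 to 276 counts a library. The lowest, 61 counts of miR-335-3p in *Zeb1 200H* replicate 3, has a 95% Clopper-Pearson interval of 777 to 1305 CPM, which covers counting error alone and takes in the values of all other mutant libraries.

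**Figure D2:**
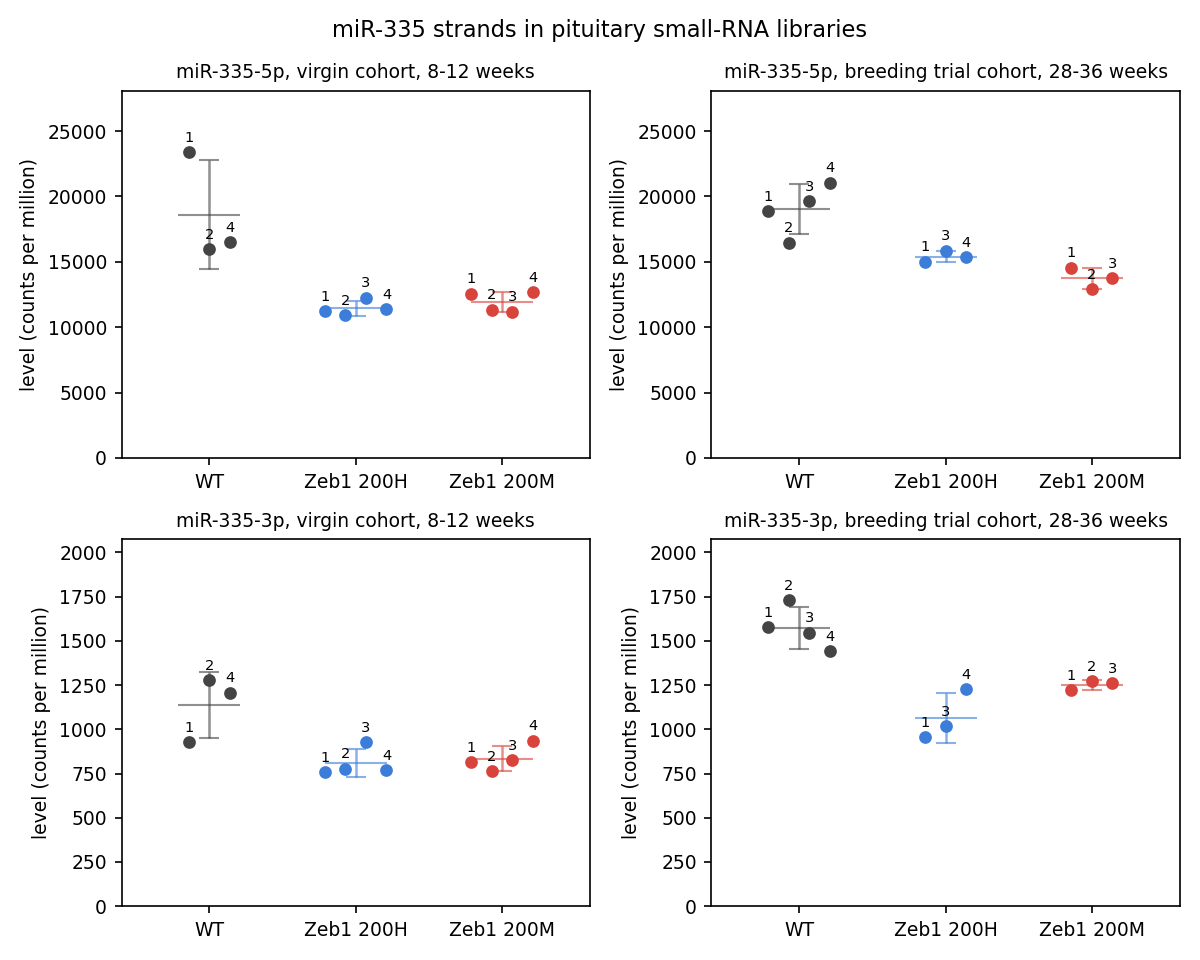
Level of miR-335-5p (upper panels) and miR-335-3p (lower panels) in CPM for each library, numbered by replicate, with group mean and SD. Virgin WT replicate 1 is the highest point for miR-335-5p, at 23384 CPM, and the lowest WT point for miR-335-3p, at 926 CPM.

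miR-335-5p was among the most abundant pituitary miRNAs in all 21 libraries, ranking between 9 and 20 with 1.09% to 2.34% of counts, and miR-335-3p ranked between 67 and 127. The ratio of the strands within a library does not depend on library scaling. In virgin WT it was 25.3, 12.5, and 13.7 in replicates 1, 2, and 4. In the 8 virgin mutant libraries it lay between 13.2 and 15.4. Virgin WT replicate 1 therefore had about the same miR-335-3p CPM as the highest mutant libraries but a ratio far above all others, and the remaining WT libraries had ratios close to those of the mutants. On the log2 scale the group means were 4.02 ± 0.55 in WT (3.71 without replicate 1), 3.83 ± 0.08 in *Zeb1 200H* and 3.84 ± 0.10 in *Zeb1 200M*.

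Within breeding trial libraries, the ratio of miR-335-5p to miR-335-3p was 12.0, 9.53, 12.7, and 14.6 in WT. It was 15.7, 15.6, and 12.5 in *Zeb1 200H*, and 11.9, 10.2, and 10.9 in *Zeb1 200M*. The log2 ratio averaged 3.59 ± 0.26 (SD, n = 4), 3.85 ± 0.18 (n = 3), and 3.45 ± 0.11 (n = 3), and WT overlapped with both mutant genotypes.

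For fold changes, edgeR was fitted to all miRNAs that passed its count filter, and both strands passed it in all 6 comparisons. In the virgin *Zeb1 200M* against WT fit, miR-335-5p had a log2 fold change of −1.13 (SE 0.29, n = 4 and 3) and miR-335-3p one of −0.84 (SE 0.14). Without WT replicate 1 these were −0.60 and −0.73, so that the larger value of miR-335-5p rested on that library. In CPM, 1 of the 2 strands had *Zeb1 200M* libraries entirely below WT, and 4.57% of the 678 miRNAs tested did so. In this fit 44 of 678 miRNAs were differentially expressed (quasi-likelihood F test, adjusted *P* below 0.05), or 6.49%. That number was 168 of 703 (23.9%) without WT replicate 1, and 27, 25, 27, and 29 without *Zeb1 200M* replicates 1, 2, 3, and 4.

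In the virgin *Zeb1 200H* against WT fit, the values were close to those of the homozygotes. miR-335-5p had a log2 fold change of −1.14 (SE 0.29) and miR-335-3p one of −0.83 (SE 0.14), or −0.63 and −0.75 without WT replicate 1. Again 1 of the 2 strands, miR-335-5p, did not overlap, beside 4.76% of 672 miRNAs lower without overlap. Of these 672 miRNAs, 34 were differentially expressed (5.06%), 151 of 699 (21.6%) without WT replicate 1, and 21, 21, 22, and 22 without *Zeb1 200H* replicates 1, 2, 3, and 4. Between the mutant genotypes miR-335-5p differed by 0.01 (SE 0.07, n = 4 and 4) and miR-335-3p by −0.01 (SE 0.09), *Zeb1 200M* relative to *Zeb1 200H*. There 0 of the 2 strands were separated in CPM, beside 1.93% of 675 miRNAs lower in *Zeb1 200M* without overlap, and 15 of 675 were differentially expressed (2.22%).

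In the breeding trial *Zeb1 200M* against WT fit, miR-335-5p had a log2 fold change of −0.71 (SE 0.10, n = 3 and 4) and miR-335-3p one of −0.56 (SE 0.12). Both strands lay below WT without overlap, as did 9.06% of the 276 miRNAs tested, of which 99 were differentially expressed (35.9%). In *Zeb1 200H* against WT the values were −0.48 (SE 0.11) and −0.72 (SE 0.15, n = 3 and 4). Both strands were again separated, beside 5.99% of 267 miRNAs, of which 32 were differentially expressed (12.0%). The order of the strands was thus reversed, miR-335-5p being the lower in *Zeb1 200M* and miR-335-3p in *Zeb1 200H*, by differences that were not tested. Without *Zeb1 200H* replicate 4 the *Zeb1 200H* value of miR-335-3p was −0.84. From *Zeb1 200H* to *Zeb1 200M*, miR-335-5p differed by −0.21 (SE 0.11, n = 3 and 3) without overlap, 1 of the 2 strands, beside 6.57% of 274 miRNAs, of which 3 were differentially expressed (1.09%), or 5 without *Zeb1 200M* replicate 2. miR-335-3p differed by 0.18 (SE 0.17), and by 0.31 without *Zeb1 200H* replicate 4. Comparisons of a cohort share their WT libraries, so the *Zeb1 200H* and *Zeb1 200M* values are not independent of each other.

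The size of these differences depended on scaling. With library totals alone the median log2 fold change of all miRNAs moved to 0.34 and 0.29 for virgin *Zeb1 200M* and *Zeb1 200H* against WT, and to 0.23 and 0.18 in the breeding trial. The value of miR-335-5p then became −0.64 and −0.70 in the virgin cohort, and that of miR-335-3p −0.45 and −0.49. Relative to the median of all miRNAs, miR-335-5p was at −0.98 and −0.99 and miR-335-3p at −0.79 and −0.79. For the breeding trial, *Zeb1 200M* values relative to that median were −0.70 and −0.56 and *Zeb1 200H* values −0.48 and −0.73, close to the TMM values. Both strands were thus lower in mutants than in WT under TMM and under library totals. Among all miRNAs, the numbers called lower and higher went from 26 and 18 to 19 and 39 in virgin *Zeb1 200M*, and from 23 and 11 to 21 and 21 in virgin *Zeb1 200H*. In the breeding trial they went from 43 and 56 to 26 and 83 in *Zeb1 200M*, and from 19 and 13 to 15 and 53 in *Zeb1 200H*. In the virgin TMM fits without WT replicate 1, the numbers lower and higher were 74 and 94 in *Zeb1 200M*, and 77 and 74 in *Zeb1 200H*.

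Whole pituitary mixes endocrine, neural, stromal, vascular, and blood cells, and fewer cells of a type and less RNA per cell cannot be told apart. A list of 8 miRNAs abundant in pituitary endocrine cells, had lower sums in mutants. It holds miR-7a-5p and miR-375-3p, its most abundant members, miR-182-5p and miR-183-5p of the miR-183 cluster, and 4 members of the miR-200 superfamily (miR-141-3p, miR-200a-3p, miR-200b-3p, and miR-200c-3p), the group of miRNAs whose sites are disrupted in *Zeb1*. Its summed level was 395737, 274081, and 278160 CPM in virgin WT, with *Zeb1 200H* at 212469 to 235637 and *Zeb1 200M* at 189038 to 226594. Breeding trial sums were 298909 to 319289 in WT, with *Zeb1 200H* at 224544 to 240703 and *Zeb1 200M* at 202760 to 221129. The 4 miR-200 superfamily members together had 51497 to 66670 CPM in virgin WT, with *Zeb1 200H* at 11041 to 13318 and *Zeb1 200M* at 6292 to 6797, and 56716 to 59327, 11709 to 12640, and 6650 to 7609 in the breeding trial. miR-375-3p was at 103399 to 145158, 80722 to 96962, and 76828 to 94542 CPM in the virgin cohort, and at 113342 to 143518, 92603 to 101704, and 89979 to 107795 in the breeding trial. miR-7a-5p did not follow, with 183265, 117851, and 117503 CPM in virgin WT, with *Zeb1 200H* at 114943 to 127082 and *Zeb1 200M* at 103292 to 124952. For the breeding trial its WT range, 102100 to 133151 CPM, overlapped that of each mutant genotype. The mutants themselves were apart there, the highest *Zeb1 200M* library (108926 CPM) lying below the lowest *Zeb1 200H* library (115396 CPM). The 2 miR-183 cluster members summed to at most 1142 CPM in any library, and 0 of the 8 were at 0 counts in any library. The miR-200 and miR-183 members, 6 of 8, passed the test as lower than WT in virgin *Zeb1 200M* and in virgin *Zeb1 200H*, beside 6.49% and 5.06% of all miRNAs called, and without WT replicate 1 it was 7 of 8 in each, with miR-375-3p, beside 23.9% and 21.6% of all. Breeding trial *Zeb1 200M* had 8 of 8 lower and *Zeb1 200H* 7 of 8, all but miR-7a-5p, whose *Zeb1 200M* call (−0.45, adjusted *P* = 0.00174) was lost with library totals alone (0.0658). Of all miRNAs the main *Zeb1 200M* and *Zeb1 200H* fits of that cohort called 35.9% and 12.0%. Between mutants 5 of 8 and 2 of 7 passed, each lower in *Zeb1 200M*, beside 2.22% and 1.09% of all. With all 3 genotypes in 1 fit, 4 of the 5 virgin calls were lost (miR-183-5p, miR-200a-3p, miR-200b-3p, and miR-200c-3p, adjusted *P* = 0.0551, 0.434, 0.0677, and 0.121) and that of miR-141-3p was kept. With the replicate number as a block, both breeding trial calls were lost (miR-141-3p and miR-200c-3p, adjusted *P* = 0.304 and 0.0789). Per the paper, ZEB1 directly represses the miR-200 loci, and their primary transcripts were lower in virgin mutants. Calls of the 4 miR-200 superfamily members therefore cannot tell a change in endocrine cells from this repression.

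A list of 6 miRNAs enriched in neurons and glia had higher sums in mutants than in WT. Its sum was 1375, 3862, and 4316 CPM in virgin WT, with *Zeb1 200H* at 6624 to 7254 and *Zeb1 200M* at 7228 to 9849. Breeding trial sums were 5012 to 6267 in WT, with *Zeb1 200H* at 8828 to 11109 and *Zeb1 200M* at 15202 to 15412, and miR-124 or miR-137-3p most abundant. miR-124-3p, a neuronal marker, was higher than WT with a log2 fold change of 2.47 (adjusted *P* = 5.0e-14) in breeding trial *Zeb1 200M* and 1.64 (adjusted *P* = 6.2e-08) in *Zeb1 200H*, with all mutant libraries above all WT libraries (n = 3 and 4). Its main form in the virgin dictionary, miR-124-3p.1, was at 2.26 (adjusted *P* = 0.000684) and 1.71 (adjusted *P* = 0.00198). Of the 5 list members tested, miR-124 passed the test as higher in all 6 comparisons, its virgin *Zeb1 200M* against *Zeb1 200H* call being lost without *Zeb1 200H* replicates 1 or 2 or *Zeb1 200M* replicate 1 (adjusted *P* = 0.0736, 0.0930, and 0.0645) and with all 3 genotypes in 1 fit (0.515), and that of the breeding trial with the replicate number as a block (0.282). In the virgin comparisons with WT it was the 1 member called of 5, beside 6.49% and 5.06% of all miRNAs. Without WT replicate 1 there were 3 of 5 in each, with miR-9-5p and miR-338-3p added, in fits that called 23.9% and 21.6% of all. Also higher in breeding trial *Zeb1 200M* against WT were miR-137-3p (0.44), miR-9-5p (0.88), and miR-338-3p (0.45), the last lost without WT replicate 2 or *Zeb1 200M* replicates 1 or 2 (adjusted *P* = 0.0534, 0.0726, and 0.0642), which makes 4 of 5 in a fit that called 35.9% of all miRNAs. The part of either list in the lower miR-335 was not tested.

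Lists for other cell types were summed in the same way. The summed stromal list (miR-145a-5p or miR-143-3p most abundant) was 2112 to 2846 CPM in virgin WT and 2651 to 5056 in virgin mutants, and 3908 to 4269 and 4730 to 6548 in the breeding trial. The endothelial list (miR-126a-3p) was 4074 to 4745 and 5158 to 5780 CPM, and 6279 to 6590 and 8212 to 9824. The blood list (miR-451a) was 5288 to 9762 and 8615 to 18791 CPM, and 5803 to 8364 and 6854 to 11009. The striated muscle list was at most 73.9 CPM in every library. In breeding trial *Zeb1 200M* against WT, 2 of 4 stromal (miR-143-3p, miR-145a-5p), 2 of 2 endothelial (miR-126a-3p, miR-126a-5p), and 2 of 3 blood miRNAs (miR-144-3p, miR-223-3p) were higher, in a fit that called 56 of all 276 miRNAs higher and 43 lower. Among these calls miR-143-3p was lost without *Zeb1 200M* replicate 1 (adjusted *P* = 0.0652), miR-144-3p without *Zeb1 200M* replicate 3 (0.148), miR-145a-5p without WT replicate 1 or *Zeb1 200M* replicates 1 or 2 (0.0899, 0.114, and 0.0558), and miR-126a-3p without the same 3 libraries (0.0735, 0.111, and 0.156). miR-145a-5p was also higher in virgin *Zeb1 200M* against WT, but not without any library other than WT replicate 1 (0.0683 to 0.146). In the 17 other pairs of list and comparison edgeR called 0 of 55 tests of these miRNAs, with 12 at an unadjusted *P* under 0.05 and 7 called by DESeq2. The fits of these pairs called 1.09% to 12.0% of all miRNAs. At an unadjusted *P* under 0.05 they had 150 of 678 and 131 of 672 in virgin *Zeb1 200M* and *Zeb1 200H* against WT, and 73 of 267 in breeding trial *Zeb1 200H*. Between mutants it was 63 of 675 in the virgin cohort and 40 of 274 in the breeding trial. Among these pairs, the 3 muscle miRNAs tested in virgin *Zeb1 200M* had a median log2 fold change of 1.92, with 3 at an unadjusted *P* under 0.05 and 3 called by DESeq2. With the replicate number as a block, miR-144-3p was also called higher in breeding trial *Zeb1 200H*. Without WT replicate 1, edgeR called as higher in virgin *Zeb1 200M* and *Zeb1 200H* 3 of 3 and 1 of 2 muscle, 2 and 1 of 6 stromal, 0 and 1 of 4 blood, and 0 and 0 of 2 endothelial miRNAs, in fits that called 23.9% and 21.6% of all miRNAs. Their part in the result for miR-335 was not tested.

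Strands of hairpins within 2 Mb of *Mir335* differed from it and from each other in size and direction. *Mir29a* and *Mir29b-1* lie 321 and 322 kb away, *Mir183*, *Mir96* and *Mir182* 572 to 575 kb, and *Mir129-1* 1719 kb, and all but *Mir129-1* are on the opposite strand. Of 10 names tested in the virgin cohort, 2 of them forms of miR-183-5p, 4 were lower in *Zeb1 200M*, or 3 of 9 strands, beside 6.49% of all miRNAs called, with a median log2 fold change of −0.52 against 0.00 for all miRNAs. Virgin *Zeb1 200H* likewise had 4 names lower, beside 5.06% of all, with a median of −0.46 against 0.01. Without WT replicate 1 these were 6 lower and 1 higher in *Zeb1 200M* and 5 lower and 1 higher in *Zeb1 200H*, beside 23.9% and 21.6% of all. The medians were then −0.44 and −0.26, against 0.04 and 0.01 for all miRNAs. In the breeding trial, 4 of 7 were lower and 1 higher in *Zeb1 200M*, and 3 of 7 lower in *Zeb1 200H*, beside 35.9% and 12.0% of all miRNAs called. From *Zeb1 200H* to *Zeb1 200M*, 2 of 10 were lower in the virgin cohort, beside 2.22% of all, both forms of miR-183-5p (1 of them lost with all 3 genotypes in 1 fit, adjusted *P* = 0.0551). Between breeding trial mutants edgeR called 0 of 6 (1 at an unadjusted *P* under 0.05, 0 by DESeq2), beside 1.09% of all.

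The lower neighbours in the virgin cohort were those of the miR-183 cluster, known from sensory and neuroendocrine cells, of which miR-182-5p and miR-183-5p, 2 strands, also belong to the endocrine list. In virgin *Zeb1 200M* against WT (n = 4 and 3), miR-182-5p, miR-96-5p, and miR-183-5p had log2 fold changes of −1.85, −2.04, and −2.36 (adjusted *P* = 3.8e-05, 5.7e-05, and 2.1e-05). In breeding trial *Zeb1 200M* against WT (n = 3 and 4) they had −1.73, −1.98, and −1.80 (adjusted *P* = 1.2e-06, 1.4e-09, and 4.6e-05), and in every one of these cases all mutant libraries were below all WT libraries. Each was further from 0 than either strand of miR-335 in the same fit. miR-29a-3p, from the nearest hairpin, was at −0.01, −0.01, 0.02, and −0.02 in the virgin *Zeb1 200M* and *Zeb1 200H* and the breeding trial *Zeb1 200M* and *Zeb1 200H* fits against WT (adjusted *P* = 0.986, 0.988, 0.928, and 0.929). In CPM, without TMM scaling, all breeding trial mutant libraries were above all WT libraries for miR-29a-3p, at 63811 or more against 62405 or less. In breeding trial *Zeb1 200M*, miR-29b-3p was higher (0.33, adjusted *P* = 0.0248) and miR-129-5p lower (−0.38, adjusted *P* = 0.0250). The call of miR-29b-3p was lost without WT replicate 1, WT replicate 3 or *Zeb1 200M* replicate 1 (adjusted *P* = 0.0542, 0.110, and 0.157). That of miR-129-5p was lost without WT replicates 1 or 2 or *Zeb1 200M* replicates 1, 2 or 3 (adjusted *P* = 0.0559, 0.106, 0.0706, 0.151, and 0.0513). It was also lost with library totals alone (−0.14, adjusted *P* = 0.410) and with the replicate number as a block (−0.34, adjusted *P* = 0.151). For miR-29b-3p the virgin values were 0.54 and 0.57 in *Zeb1 200M* and *Zeb1 200H* (adjusted *P* = 0.0973 and 0.0677), with all mutant libraries above all WT libraries in CPM, and it was called higher without WT replicate 1 (0.44 and 0.45, adjusted *P* = 0.00431 and 0.000774). miR-129-5p had −0.40 and −0.27 there (adjusted *P* = 0.114 and 0.287). Both of these miRNAs also have a hairpin on another chromosome. The other tested strands, miR-29a-5p, miR-29b-1-5p, and miR-129-1/2-3p, had log2 fold changes of 0.26, −0.63, and −0.32 in virgin *Zeb1 200M* (adjusted *P* = 0.511, 0.339, and 0.376).

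**Figure D3:**
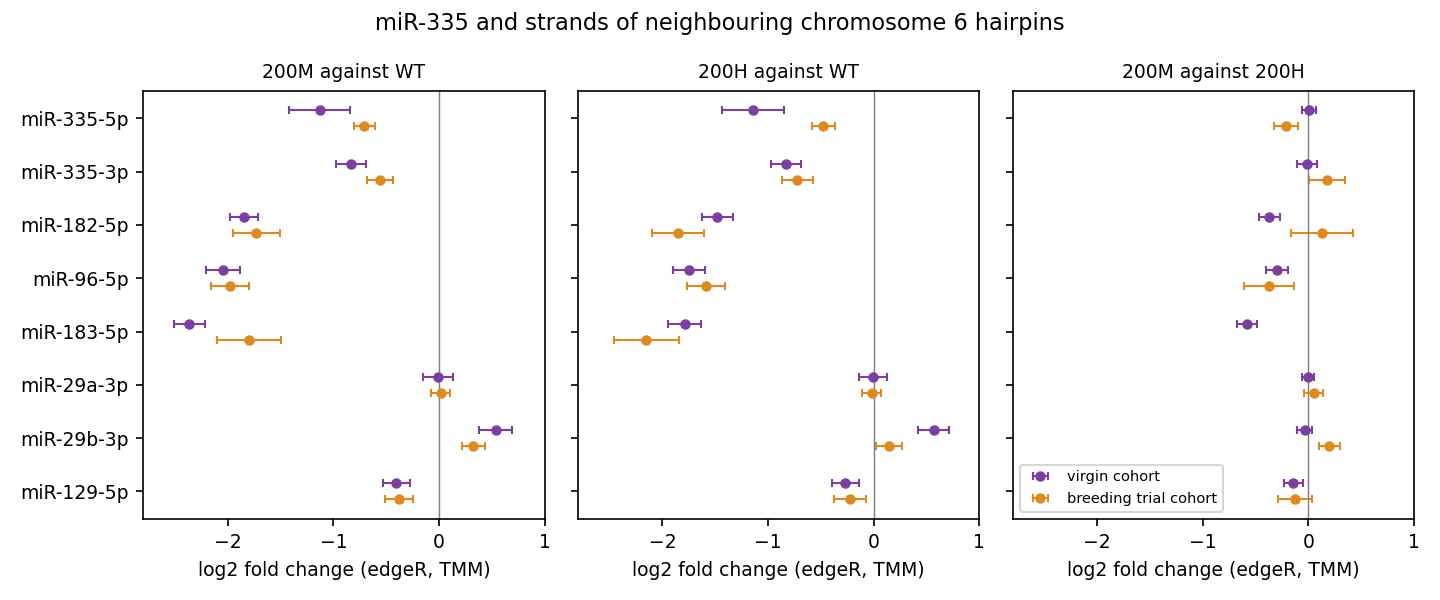
Log2 fold change (edgeR, TMM scaling) with its standard error for the strands of miR-335 and for the main strands of neighbouring chromosome 6 hairpins, by comparison and cohort. miR-335-5p and miR-335-3p lie between the miR-183 cluster, at −1.48 to −2.36 against WT, and miR-29a-3p near 0. miR-183-5p was not tested between breeding trial mutants.

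Other imprinted miRNA genes were examined beside miR-335. Among miRNAs of other paternally expressed hosts, the *Gnas* antisense transcript and *Igf2*, those called in the main fits were higher in mutants, where miR-335 was lower. All of these calls were of the *Gnas* transcript. The miR-483 strands of *Igf2* were at 0 counts in every breeding trial library and had no call in the main virgin fits. miR-298-5p had log2 fold changes of 1.14 (adjusted *P* = 0.00106, n = 4 and 3) and 0.98 (adjusted *P* = 0.00388) in virgin *Zeb1 200M* and *Zeb1 200H*, with adjusted *P* of 0.0584 and 0.106 when the replicate number was a block. miR-296-5p had 0.51 (adjusted *P* = 0.00495, n = 3 and 4) in breeding trial *Zeb1 200M*, not called without *Zeb1 200M* replicate 2 (adjusted *P* = 0.0643), and miR-296-3p had 0.62 (adjusted *P* = 0.0475) in virgin *Zeb1 200M*, not called without any library other than WT replicate 1 (0.0683 to 0.171). These were 2 of 4 tested in virgin *Zeb1 200M*, 1 of 4 in virgin *Zeb1 200H*, and 1 of 2 in breeding trial *Zeb1 200M*, beside 6.49%, 5.06%, and 35.9% of all miRNAs called in those fits. Without WT replicate 1 it was 2 of 4 in each virgin genotype, beside 23.9% and 21.6% of all. edgeR called 0 of 2 in breeding trial *Zeb1 200H* against WT (1 at an unadjusted *P* under 0.05, 0 by DESeq2), beside 12.0% of all. Between mutants it called 0 of 4 and 0 of 3 (0 and 0 at an unadjusted *P* under 0.05, 0 and 0 by DESeq2), beside 2.22% and 1.09% of all. miR-675, hosted by the maternally expressed *H19*, was at 0 counts in most libraries and was not tested.

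In the maternally expressed *Dlk1*-*Dio3* region, 2 of 86 miRNAs, miR-494-3p and miR-679-5p, were lower in virgin *Zeb1 200M* and in virgin *Zeb1 200H*. Among all miRNAs 6.49% and 5.06% were called in these fits. miR-679-5p had log2 fold changes of −1.52 and −1.63 (adjusted *P* = 0.0314 and 0.0308), and its calls were lost when any mutant library was left out (0.0751 to 0.108 and 0.0753 to 0.111), with fold changes of −1.39 to −1.60 and −1.51 to −1.76 in the *Zeb1 200M* and *Zeb1 200H* fits. miR-494-3p had −0.80 and −0.69 (adjusted *P* = 0.0168 and 0.0397), lost without WT replicates 2 or 4, *Zeb1 200M* replicates 1, 2 or 3, or any *Zeb1 200H* library (0.0508 to 0.0676 and 0.0961 to 0.130), with fold changes between −0.70 and −0.82 and between −0.60 and −0.74. With library totals alone both calls of miR-494-3p were lost, at −0.47 and −0.41 (adjusted *P* = 0.286 and 0.403). Without WT replicate 1, 10 were lower and 8 higher of 87 in *Zeb1 200M*, and 13 and 8 of 86 in *Zeb1 200H*, near the 23.9% and 21.6% of all miRNAs called in these fits. In the breeding trial 7 were lower and 7 higher of 53 in *Zeb1 200M*, beside 35.9% called of all miRNAs, the 3 largest changes being those of miR-540-5p (−1.09, adjusted *P* = 4.7e-05), miR-494-3p (−0.95, adjusted *P* = 0.00261), and miR-770-3p (1.01, adjusted *P* = 0.0197, or 0.0937 and 0.110 without WT replicate 4 or *Zeb1 200M* replicate 2). In *Zeb1 200H* it was 2 lower (miR-409-5p, miR-540-5p) and 1 higher (miR-770-5p) of 52, beside 12.0% of all, each lost without *Zeb1 200H* replicate 1 (adjusted *P* = 0.126, 0.307, and 0.154). miR-409-5p was also lost without WT replicates 1 or 2 or *Zeb1 200H* replicates 3 or 4 (0.0880 to 0.136), miR-540-5p without WT replicates 1, 2 or 4 or *Zeb1 200H* replicate 3 (0.0668 to 0.113), and miR-770-5p without WT replicates 1 or 4 or *Zeb1 200H* replicate 4 (0.0558 to 0.0646). With the replicate number as a block, miR-494-3p was also called lower in breeding trial *Zeb1 200H*. From *Zeb1 200H* to *Zeb1 200M*, miR-770-3p and miR-770-5p of 85 were higher in the virgin cohort, beside 2.22% called of all, both lost with all 3 genotypes in 1 fit (adjusted *P* = 0.996 for each) and miR-770-3p also with the replicate number as a block (0.0536). Between breeding trial mutants edgeR called 0 of 53 (2 at an unadjusted *P* under 0.05, 0 by DESeq2), beside 1.09% of all.

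The miRNAs whose pattern was most like that of each strand were ranked among 154 names with a mean of at least 50 counts in each cohort. The measure was the lower of the Pearson correlations of log2 TMM-scaled CPM over the 11 virgin and the 10 breeding trial libraries, given without a test because genotype enters it. miR-335-5p was most like miR-151-5p (0.91), miR-200c-3p (0.89), miR-200a-3p (0.88), miR-376c-3p (0.88), and miR-96-5p (0.87). miR-335-3p was most like miR-200a-3p (0.95), miR-205-5p (0.93), miR-429-3p (0.93), miR-200b-3p (0.92), and miR-96-5p (0.91). The miR-200 family members among them are repressors of *Zeb1* or relatives of these, and miR-200a-3p, miR-200b-3p, and miR-200c-3p were lower than WT in both mutant genotypes of both cohorts. miR-335-3p took place 17 in the ranking for miR-335-5p, and miR-335-5p took place 11 in that for miR-335-3p. Without virgin WT replicate 1, 5 of the 5 names for miR-335-3p kept a place among its nearest 5, and 2 of 5 did for miR-335-5p. With genotype means removed, 2 of 5 and 0 of 5 did.

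Across libraries the strands of miR-335 were correlated in the virgin cohort, with Pearson *r* = 0.89 and Spearman rho = 0.95 over 11 libraries on the log2 TMM-scaled scale. Without WT replicates 1 and 4, the libraries farthest from the median of miR-335-5p, *r* was 0.97 and rho 0.92. After subtraction of genotype means it was 0.53, and rho was 0.68. In the breeding trial *r* was 0.76 and rho 0.54 over 10 libraries, and these fell to 0.62 and 0.19 without WT replicates 1 and 4, farthest by the same rule. After subtraction of genotype means *r* was −0.36 and rho −0.39. With library totals alone *r* was 0.62 and 0.53 and rho 0.70 and 0.52 in the virgin and breeding trial cohorts. The libraries of a genotype share the values on which the strands were chosen, so no test is attached.

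Sequence windows at the starts of *Mest*, 250 bases before to 50 after each RefSeq start, were searched on both strands for the E-box letters CAGGTG and CAGGTA, forms bound by ZEB1. Of 3 windows, 1 held CAGGTG and 0 held CAGGTA, against 20.2% and 12.0% of all 32851 windows, and 29.5% held either. The 2 windows without a match overlap, shifted by 3 bases, so 2 separate promoter regions were searched. The window with the match surrounds the start of Mest-210, and those without a match surround the starts of Mest-211 and Mest-202. Mest-201, Mest-205, and Mest-209 also span the hairpin, but their annotated starts lie outside these windows and were not searched. The window with the match is printed because it belongs to the host of the lower miRNA (chr6:30733256-30733555, plus strand, RefSeq GRCm38.p6), with the match in capitals as CACCTG, the motif on the minus strand.
*Mest* window: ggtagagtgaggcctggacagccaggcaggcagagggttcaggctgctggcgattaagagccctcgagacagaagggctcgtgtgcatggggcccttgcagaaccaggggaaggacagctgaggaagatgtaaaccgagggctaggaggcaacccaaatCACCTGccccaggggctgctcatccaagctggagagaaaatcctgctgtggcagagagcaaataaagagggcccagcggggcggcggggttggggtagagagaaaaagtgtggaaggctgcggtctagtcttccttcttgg
The match covers bases 30733415 to 30733420. It is a description of letters, and binding was not measured in these libraries.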

How the data were processed

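Small RNAs of 21 pituitaries, 1 mouse a library, were sequenced and counted by the authors. Per the paper's methods they trimmed adapters with cutadapt, applied a quality filter over all bases, and matched the first 19 (virgin) or 18 (breeding trial) bases of reads to miRNA dictionaries. Values used here are the raw counts that the authors deposited for each miRNA and library. Their log2 fold changes, Wald statistics, p values, and adjusted p values (DESeq2, 1.38.3 for the virgin cohort and an older release for the breeding trial), and 42 per-sample normalised columns, were not used. Counts of all 21 libraries were identical wherever a library was deposited more than once.

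Each pair of genotypes within a cohort was fitted over all miRNAs in R 4.3.3 with edgeR 4.0.16, with TMM scaling, the expression filter (minimum count 10, minimum total count 15), the quasi-likelihood F test, and Benjamini-Hochberg adjustment over all miRNAs tested (threshold 0.05). The standard error was the absolute log2 fold change over the square root of F. The procedure was tested on simulated data. CPM are relative to library totals, and ratios of strands used a pseudocount of 0.5. A 95% counting interval covers counting error alone, since reads were not collapsed to molecules in the methods given.

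The members and lists were chosen with earlier results of these data known. Named were both strands, the 5 miRNAs most like each, the tested strands of hairpins within 2 Mb, of each other list up to 4 called members with the largest change, and miRNAs with the same seed. Further members of the *Dlk1*-*Dio3* region and of other lists were named after their values were seen, by no fixed rule. Permutation p values planned for the correlation of the strands are not given, because genotype levels chose the strands. For breeding trial *Zeb1 200H* against WT, libraries of the same replicate number correlated after removal of genotype means (0.159, 0.222, and 0.308 in the 3 pairs), so the numbers may mark pairs. With the number as a block, which also drops WT replicate 2 for want of a partner, 43 miRNAs were called. Without a block it was 32 with all libraries and 26 without WT replicate 2. Among those named by the rule, the blocked fit added miR-144-3p (0.50, adjusted p = 0.0377) and miR-494-3p (−0.72, adjusted p = 0.0210). In the other comparisons at least 1 pair was below 0.1. Alternatives were DESeq2 1.42.0, its size factors in edgeR, no low-count filter, library totals alone, TMM computed without the miR-200 superfamily, all 3 genotypes in 1 fit, the replicate number as a block, and leaving out each library.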

Additional observations from a re-analysis of the deposited data

Results flagged for a closer look

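The 3 groups with 4 libraries were checked for each of 13 quantities, the 2 strands, their ratio, and 10 list sums, which gives 39 sets of values that are not independent. A library far from the rest was found in 6 sets, and chance alone flags about 1 in 20, a rate that does not hold for the 3 sets of miR-675, whose libraries had 0 to 3 counts. miR-335-3p in virgin *Zeb1 200H* replicate 3 was at 928 CPM, whereas the other libraries of that group were at 758 to 776 CPM. The summed level of miR-675, the miRNA of *H19*, was 0.206 CPM in virgin *Zeb1 200H* replicate 2 against 0 in the others, 0.292 CPM in virgin *Zeb1 200M* replicate 4 against 0.0951 to 0.118 CPM, and 11.9 CPM, a count of 1, in breeding trial WT replicate 3 against 0. Breeding trial WT replicate 2 had 113598 CPM of the *Dlk1*-*Dio3* list against 102458 to 104216 CPM, and 8364 CPM of the blood list against 5803 to 6068 CPM. The 2 strands and the list members named by rule gave 75 comparisons tested in both cohorts, and in 0 of these were the 2 genotypes separated in CPM without overlap in both cohorts but in opposite directions. Smaller differences in sign were not counted.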

How the results depend on the processing

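The strands of miR-335 were lower than WT in both mutant genotypes and both cohorts under every alternative run. With library totals alone their log2 fold changes in *Zeb1 200M* and *Zeb1 200H* were nearer 0, at −0.64 and −0.70 for miR-335-5p and −0.45 and −0.49 for miR-335-3p for virgin mice, and for the breeding trial −0.47 for miR-335-5p and −0.32 for miR-335-3p in *Zeb1 200M* and −0.30 for miR-335-5p and −0.55 for miR-335-3p in *Zeb1 200H*. Mean levels after TMM scaling were 23517 (WT), 10845 (*Zeb1 200H*), and 11036 (*Zeb1 200M*) CPM for virgin miR-335-5p, 1350 for virgin WT miR-335-3p, 20979, 14739, and 12655 for breeding trial miR-335-5p, and 1726 (WT) and 1154 (*Zeb1 200M*) for breeding trial miR-335-3p. The breeding trial correlation of the strands was 0.53 with library totals alone, and its rank correlation went from 0.54 to 0.19 without WT replicates 1 and 4.

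The numbers of miRNAs called in virgin *Zeb1 200M* and *Zeb1 200H* against WT were 93 and 73 with DESeq2 and 90 and 67 with all 3 genotypes in 1 fit, and those of listed miRNAs 31 and 25, and 26 and 20. With the replicate number as a block, a fit that drops libraries without a partner, they were 20 and 18, and 9 listed miRNAs in *Zeb1 200M*. Between virgin mutants, all 3 genotypes in 1 fit gave 5 calls, 2 of them listed. Library totals alone gave 68 calls, 25 listed, in breeding trial *Zeb1 200H* against WT. Between breeding trial mutants the block, with 4 libraries, gave 0 calls and 0 listed in edgeR, with 29 miRNAs at an unadjusted p under 0.05, whereas edgeR and DESeq2 without it gave 3 and 3. The causes were not tested.

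Of the calls named in the report, some were lost under alternatives other than leaving out a library. All 3 genotypes in 1 fit ended the virgin mutant calls of miR-200a-3p, miR-124-3p.1, miR-200b-3p, miR-183-5p, miR-200c-3p, miR-770-3p, and miR-770-5p (adjusted p = 0.0551 to 0.996). The replicate block ended those of miR-141-3p, miR-200c-3p, and miR-124-3p between breeding trial mutants and of miR-770-3p between virgin mutants (0.0536 to 0.304). Against virgin WT it ended miR-298-5p, miR-494-3p, and miR-679-5p in both mutant genotypes and miR-296-3p and miR-145a-5p in *Zeb1 200M* (0.0584 to 0.414), and in breeding trial *Zeb1 200M* miR-126a-3p, miR-129-5p, miR-144-3p, miR-145a-5p, and miR-770-3p (0.0510 to 0.151). Library totals alone ended miR-494-3p in both virgin mutant genotypes, miR-7a-5p and miR-129-5p in breeding trial *Zeb1 200M*, and miR-409-5p and miR-540-5p in breeding trial *Zeb1 200H* (0.0658 to 0.410). DESeq2 ended miR-770-3p in breeding trial *Zeb1 200M* and miR-409-5p and miR-770-5p in *Zeb1 200H* (0.0638 to 0.0947). With no low-count filter miR-296-3p, miR-145a-5p, and miR-494-3p in the virgin and miR-145a-5p, miR-126a-3p, and miR-770-3p in the breeding trial cohort were lost (0.0506 to 0.153), with DESeq2 size factors virgin miR-296-3p and miR-145a-5p (0.0549 and 0.0542), and with TMM computed without the miR-200 superfamily miR-296-3p (0.0502).

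Leaving out each library in turn, miR-335-5p ranged from −1.33 to −0.60 in virgin *Zeb1 200M* and from −1.34 to −0.63 in virgin *Zeb1 200H* against WT, and miR-335-3p from −0.84 to −0.63 in breeding trial *Zeb1 200H* against WT and from 0.11 to 0.31 between breeding trial mutants. Calls ranged from 25 to 168, from 21 to 151, and from 3 to 5 in virgin *Zeb1 200M* and *Zeb1 200H* against WT and between breeding trial mutants, and listed calls from 10 to 40 in each of the virgin comparisons with WT. Values of listed calls, mean levels, and the correlation without virgin WT replicate 1 were chosen after seeing the data, and that correlation was 0.97. The cohorts hold 3 or 4 libraries a group, and in the breeding trial, with at most 191650 counts a library, rare miRNAs such as miR-675 could not be measured.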
